A study of Homo sapiens with 22 samples.

Results

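TMPRSS2 (ENSG00000184012) is 1 gene of the 36859 in the deposited RNA-seq table of hTERT-immortalized renal proximal tubule epithelial cells (RPTEC). It was chosen because its rise from WT was among the largest in both SETD2 knockout clones, so its values in WT, KO1 and KO2 are given as a description, with no test. The table held 22 libraries in 11 groups of 2, and TMPRSS2 is described across all of them. SETD2 is the methyltransferase that places the trimethyl mark on lysine 36 of histone H3.

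The 11 groups all came from the same immortalized line and differed in SETD2 status, added proteins, serum and cloning. WT cells, KO1, KO2 and the libraries labelled KO2 rescue were grown in 2% serum. KO1 and KO2 are single clones made with a guide RNA against exon 3 of SETD2, with frameshifts on both alleles. WT cells treated with TGF-β received 10 ng/mL for 72 h, also in 2% serum, whereas the untreated 2% serum libraries carry the time label 0 h. Rescue1 and Rescue2 are single clones of SETD2 KO cells that carry a lentiviral, FLAG-tagged, full-length SETD2 under blasticidin selection, and they were grown in 10% serum. The last 4 groups are SETD2-intact WT cells transduced by lentivirus with eGFP (the control, titled empty vector), SOX2, OCT2 or PRRX1 and kept under selection as bulk lines. The labels give their medium only as regular, which was taken here as 10% serum because the rescue clones carry the same entry. No untransduced WT cells in 10% serum were analysed here, so serum, transduction with selection, and the named genotype cannot be told apart between the 2% and the 10% serum groups. Whether the 2 libraries of a group came from separate cultures is not stated, so p-values measure only the spread between these libraries, which may be technical.

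TMPRSS2 encodes a type II transmembrane serine protease, a membrane-anchored enzyme with its trypsin-like catalytic domain outside the cell. It is best known from prostate epithelium, where it responds to androgen and where its promoter is often fused to ERG in cancer, and from airway and gut epithelium, where it cleaves viral surface proteins such as the coronavirus spike. Relatives in the same family cleave hormone precursors, ion channel subunits and growth factor precursors, and are held in check by Kunitz-type inhibitors and serpins.

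On GRCh38 the GENCODE 44 annotation places TMPRSS2 on chromosome 21 (minus strand), from 41464300 to 41531116, a span of 66817 bases. It lists 20 transcripts, of which 13 are coding, and the canonical one has 14 exons and 3450 bases. The 3' end of the gene lies over the end of MX1, an interferon-induced antiviral GTPase on the plus strand, from 41464300 to 41470071 (5772 bases), where the exons of both genes share 562 bases and 1 of 48 MX1 transcripts reaches in. The deposited values are per gene, so isoforms of TMPRSS2 cannot be told apart. The libraries were made with a stranded kit, but whether strand was used in quantification is not given in the sources used here.

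SETD2 itself was read first as a check of the labels, in normalized counts, the scale used for every level below. WT libraries held 1852 and 2061, TGF-β libraries 1955 and 2021, KO1 libraries 1046 and 1130, and KO2 libraries 1050 and 1052. Rescue1 held 10240 and 10370 and Rescue2 10440 and 9764, above every other library. The 2 libraries labelled KO2 rescue held 834 and 820 normalized counts of SETD2, the lowest in the series, which goes against their label. They are therefore called the libraries labelled KO2 rescue throughout. Normalized counts summed to 11674491 to 16758645 per library, and the depth was approximated as 7692965 to 19022298 reads.

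TMPRSS2 was listed at 0 in all 4 libraries of untreated and TGF-β-treated WT cells. In KO1 it stood at 5698 and 5416 normalized counts (mean 5557 ± 199 SD, n = 2) and in KO2 at 3542 and 3355 (3449 ± 132 SD, n = 2). These levels rest on about 5755 and 6147 reads in KO1 and about 3280 and 2855 in KO2. Both KO clones lay above all other groups without overlap, and the mean of KO1 was 1.61 times that of KO2.

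In the libraries labelled KO2 rescue, TMPRSS2 stood at 1839 and 2104 normalized counts (1971 ± 188 SD, n = 2). The mean of KO2 was 1.75 times this level, and the ranges did not overlap. In the 2 rescue clones with high SETD2 mRNA the gene was lower still, at 395 and 333 in Rescue1 (364 ± 43.9 SD, n = 2) and 360 and 450 in Rescue2 (405 ± 63.2 SD, n = 2). The mean of KO2 was 8.97 times the mean of these 4 libraries (385 ± 50.3 SD, n = 4), with serum differing between them. No rescue library was listed at 0.

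The transduced WT lines, whose SETD2 is intact, also carried TMPRSS2. The eGFP control stood at 554 and 418 normalized counts (486 ± 96.2 SD, n = 2), on about 450 and 462 reads. SOX2 cells held 726 and 666 (696 ± 41.9 SD, n = 2) and OCT2 cells 520 and 383 (451 ± 96.7 SD, n = 2). PRRX1 cells held 596 and 1065 (831 ± 332 SD, n = 2), the widest spread of any group. All 8 transduced WT libraries thus lay between 383 and 1065 normalized counts, with a median of 575, while the 4 untransduced WT libraries in 2% serum were listed at 0. SETD2 mRNA in those 8 libraries ranged from 2702 to 3128 normalized counts, above the 1852 to 2061 of the 4 WT libraries in 2% serum.

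**Figure D1:**
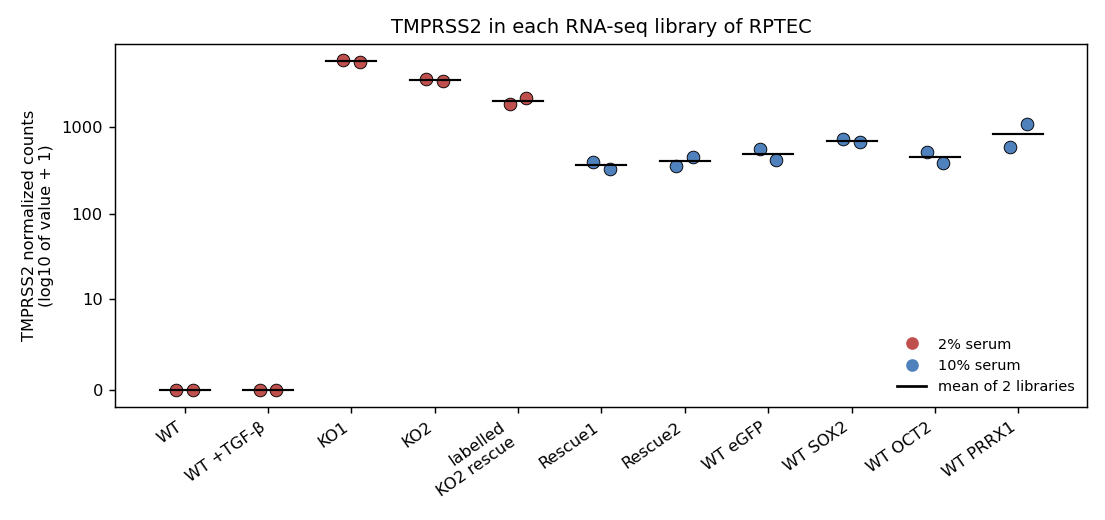
TMPRSS2 normalized counts on the y axis (log10 of the value + 1) for each of the 22 libraries, by group on the x axis. Points are libraries, coloured by serum, and bars are means of 2. The 4 WT and TGF-β libraries sit at 0, KO1 and KO2 between 3355 and 5698, and every 10% serum library between 333 and 1065.

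In order of mean level the groups ran KO1, KO2, labelled KO2 rescue, PRRX1, SOX2, eGFP, OCT2, Rescue2, Rescue1, then WT and TGF-β-treated WT. The ranges of neighbouring groups overlapped between PRRX1 and SOX2, between eGFP and OCT2, between OCT2 and Rescue2, and between Rescue2 and Rescue1. They did not overlap between KO1 and KO2, KO2 and labelled KO2 rescue, labelled KO2 rescue and PRRX1, or SOX2 and eGFP. As a ratio to the eGFP mean, the level was 11.4 in KO1, 7.10 in KO2, 4.06 in labelled KO2 rescue, 1.71 in PRRX1, 1.43 in SOX2, 0.929 in OCT2, 0.834 in Rescue2 and 0.750 in Rescue1. With totals of all libraries made equal, the ratio was 8.84 in KO1 and 6.22 in KO2, since the KO libraries have larger totals of normalized counts. Set among the genes tested and not per length, TMPRSS2 in KO1 lay above 97.5% of genes in each library, and in the eGFP libraries above 74.6% and 69.7%.

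A value of exactly 0 has a limit in these data. Of 3908 genes with a median of at least 500 normalized counts, 15 were listed at 0 in at least 1 library. ATN1, a transcriptional corepressor used in most tissues, was listed at 0 in 3 libraries of the transduced lines, and its other 19 libraries ran up to 2215 normalized counts. NACC2, another transcriptional repressor, was listed at 0 in 3 of the 4 WT and TGF-β libraries and stood at 346 in the fourth. The 0 of TMPRSS2 was shared by all 4 of those libraries, and no fold against them is given here. In bulk RNA, a change in the number of cells that carry a transcript and a change per cell cannot be told apart.

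Only contrasts between libraries that did not enter the choice of the gene were tested. The test was that of limma, run jointly for the 22 libraries on normalized counts as log2(value + 1), with Benjamini-Hochberg adjustment over 14585 genes. A gene was called at an adjusted p under 0.05 with an absolute log2 change over 1. The mean of the rescue clones was below eGFP by a log2 difference of -0.33 (SE 0.21, 95% interval -0.77 to 0.11, adjusted p = 0.261), which is 0.795-fold with an interval of 0.586 to 1.08. The call was not made, and the interval leaves room for a rescue level from 0.586 of the control to slightly above it. Rescue1 and Rescue2, both in 10% serum, differed by -0.15 (SE 0.24, 95% interval -0.66 to 0.36, adjusted p = 0.936). Of all genes tested, 13.1% were called between the rescue clones and eGFP and 0.994% between the rescue clones.

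The libraries labelled KO2 rescue stood above the rescue clones by a log2 difference of 2.36 (SE 0.21, 95% interval 1.92 to 2.80, adjusted p = 1.148e-06), or 5.13-fold. Both libraries of the first group lay above all 4 of the second. In this contrast 10.4% of genes were called, and the groups also differ in serum and in SETD2 mRNA, which cannot be told apart. On the deposited log2 values, which compress low levels, the same difference was 0.67 (adjusted p = 1.246e-07) and fell under the threshold of 1.

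Ectopic SOX2, OCT2 and PRRX1 are transcription factors tied to stemness and mesenchymal identity, and each line was set against eGFP, which has the same medium label. SOX2 gave a log2 difference of 0.53 (SE 0.24, 95% interval 0.02 to 1.04), with an adjusted p of 0.712. PRRX1 gave 0.73 (SE 0.24, 95% interval 0.22 to 1.24), with an adjusted p of 0.841. OCT2 gave -0.11 (SE 0.24, 95% interval -0.62 to 0.40), with an adjusted p of 1. None of the 3 was called, at unadjusted limma p-values of 0.0424, 0.00842 and 0.654, and the intervals of SOX2 and PRRX1 reach 2.06-fold and 2.35-fold. Few genes were called in these lines at all, 3 for SOX2 (0.0206%), 5 for OCT2 (0.0343%) and 6 for PRRX1 (0.0411%), while 391, 397 and 387 had an unadjusted p under 0.05 and a change past that threshold. The added factors were themselves visible where they could be read. POU2F2, the gene of OCT2, stood at 1251 and 1121 normalized counts in OCT2 cells against 279 and 357 in eGFP cells. PRRX1 stood at 395 and 404 in PRRX1 cells and was listed at 0 in both eGFP libraries. SOX2 was looked for but had no entry under that name among the genes read, so added SOX2 mRNA could not be checked.

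**Figure D2:**
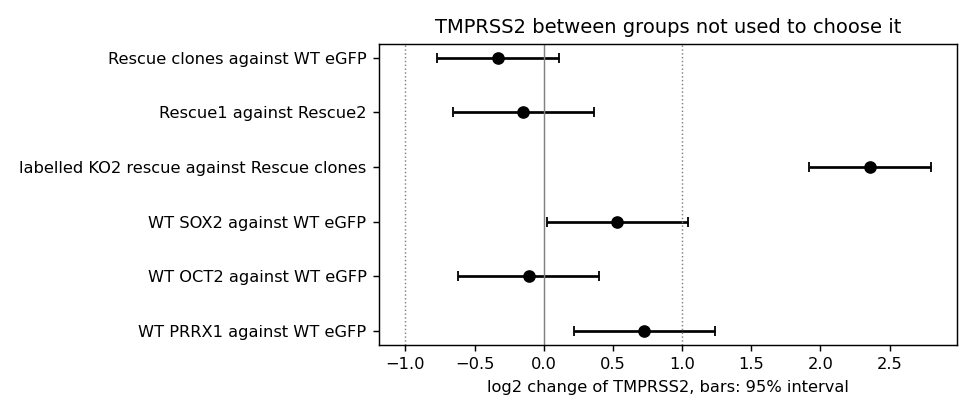
Log2 change of TMPRSS2 on the x axis for the 6 contrasts between libraries not used to choose the gene, one per row. Points are limma estimates, bars their 95% intervals, and dotted lines an absolute log2 change of 1. The labelled KO2 rescue libraries stand 2.36 above the rescue clones, and the other 5 estimates lie between -0.33 and 0.73.

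The size of the TMPRSS2 change placed it near the top of the ranking from which it was chosen. Its log2 change on the log2(value + 1) scale was 12.44 in KO1, behind IL1B (13.46), the inflammatory cytokine, and WNT2 (13.40), a secreted WNT ligand. Next below were ENSG00000274221 (12.20), IGF2 (12.01) and SV2B (11.96). In KO2 it was 11.75, behind PDPN (12.20), a mucin-type membrane glycoprotein, and followed by WNT2 (11.49), IGF2 (10.98) and LRRC15 (10.50), a membrane protein of activated fibroblasts. These figures depend on the pseudocount of 1 because WT was listed at 0, and they are no measure of a fold. KO1 and KO2 were both compared with the same WT libraries, as were TGF-β and eGFP.

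Among the other type II transmembrane serine proteases, RPTEC carried little. Of 17 family members 16 were in the table and 3 passed the filter, which asked for 10 normalized counts or more in 2 or more libraries. Of these 3, 1 was called higher and 1 lower in each KO clone, where 25.0% of all genes were called in KO1 (12.0% higher, 13.1% lower) and 16.3% in KO2 (9.02% higher, 7.29% lower). CORIN, the protease that activates atrial natriuretic peptide, was the 1 called higher, and it passed the filter only through libraries of KO1, KO2 and labelled KO2 rescue. It was listed at 0 in both WT libraries, so no fold is given, and stood at 8.38 and 38.6 normalized counts in KO1 and 20.5 and 21.8 in KO2. TMPRSS3, a protease of the inner ear, was called lower in both clones, with 7.33 and 26.4 normalized counts in WT, 0.817 and 0 in KO1 and 0 in both KO2 libraries. TMPRSS3 passed the filter only through libraries of WT and TGF-β-treated WT, where it is highest, so its lower calls, here and below, are description only. TMPRSS5 was not called, at 1.34 and 1.59. Matriptase (ST14) reached at most 6.22, hepsin (HPN) 2.95 and TMPRSS4 14.2 normalized counts in any library.

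Per kilobase of canonical transcript, TMPRSS2 was the family member with the highest level in both KO clones and in eGFP cells. It stood at 1611 normalized counts per kb in KO1, 999.6 in KO2 and 141 in eGFP cells. CORIN stood at 4.73, 4.25 and 0.242 per kb in the same groups, and TMPRSS5 at 4.37, 5.18 and 1.04. In eGFP cells, CORIN was not called against WT (adjusted p = 0.551) and TMPRSS3, listed at 0 in both libraries, was called lower, where 12.7% of all genes were called (6.49% higher, 6.24% lower). In the rescue clones, CORIN was the 1 member of 3 called against KO2 (-3.60, adjusted p = 0.00295), where 17.5% of genes were called.

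More inhibitors of these proteases were called lower than higher in the KO clones. Of 9 members 7 were tested, and 4 were called lower in KO1 and 3 lower and 1 higher in KO2, beside 13.1% of all genes lower in KO1 and 7.29% lower and 9.02% higher in KO2. SERPINE2 (protease nexin-1), a serpin that blocks trypsin-like enzymes, had called log2 changes of -2.36 (KO1) and -2.41 (KO2) from a WT mean of 4784 normalized counts. SERPINA1, alpha-1 antitrypsin, had called changes of -2.09 and -1.65. In eGFP cells, 2 of the 7 were called lower than in WT and 0 higher (28.6%, beside 6.24% of all genes lower). SERPINE2 stood at 1108 and 1150 normalized counts in eGFP cells, near its 849.8 and 1011 in KO1. SERPINA1 stood at 6535 and 6595 in eGFP cells, against 7442 and 7357 in WT.

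The 2 Kunitz-type inhibitors that bind this protease family on epithelial membranes are SPINT1 and SPINT2. SPINT1 stood at a mean of 2711 normalized counts in WT and 4928 in KO1, a change of 0.86 that is under the fold threshold, and at 0.49 in KO2. SPINT2 had a change of -1.88 in KO1 (adjusted p = 0.0273), whereas in KO2 it was -1.11 (adjusted p = 0.217). Its WT libraries were 3515 and 805 normalized counts and its KO1 libraries 276 and 754, so that without WT replicate 1 the KO1 change was -0.82 (adjusted p = 0.350) and without KO1 replicate 1 it was -1.16 (adjusted p = 0.225). In the rescue clones SPINT2 was called lower than in eGFP cells, with a log2 difference of -3.12 (adjusted p = 0.000494). In that contrast 4 of the 7 inhibitors were called, 1 higher and 3 lower (57.1%, beside 13.1% of all genes). SERPINA5, the protein C inhibitor, was called higher in KO2 (4.80) from a WT mean of 2.71 normalized counts. It lost that call without WT replicate 2 (3.46, adjusted p = 0.0899) and without KO2 replicate 2 (4.29, adjusted p = 0.0570).

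Among substrates, partners and viral entry factors, 11 of 16 members were tested. In KO1, 3 were called higher and 2 lower (45.5% called, beside 25.0% of all genes), and in KO2, 4 higher and 2 lower (54.5%, beside 16.3%). CTSB, a lysosomal protease that can act in viral entry in parallel with TMPRSS2, rose by 2.23 in KO1 and 2.35 in KO2, from a WT mean of 10450 normalized counts to 49140 and 53320. MET, the receptor for hepatocyte growth factor, rose by 1.86 and 1.46. ANPEP, a brush border aminopeptidase and coronavirus receptor, rose by 2.77 and 2.36. The ANPEP value was 1.56 in KO1 without KO1 replicate 2 (adjusted p = 0.133) and 1.65 in KO2 without KO2 replicate 1 (adjusted p = 0.226), and the KO2 call was also lost without WT replicate 1 (2.39, adjusted p = 0.0846) or WT replicate 2 (2.34, adjusted p = 0.0959).

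SCNN1A, the alpha subunit of the epithelial sodium channel, changed by -2.96 and -2.49 in the clones, both called lower, from a WT mean of 158 normalized counts. MST1R, the receptor of macrophage-stimulating protein, changed by -4.05 and -3.60. In KO2 the SCNN1A call was lost without WT replicate 2 (-2.36, adjusted p = 0.0533), and the MST1R call without WT replicate 1 (-3.30, adjusted p = 0.0770) or KO2 replicate 2 (-3.20, adjusted p = 0.0911). The ligand gene of MST1R, MST1, was called in KO2 (1.34) and had 0.98 in KO1 (adjusted p = 0.0525), and between the KO clones 0 of the 11 were called by limma, beside 6.97% of all genes. The MST1 call was lost without WT replicate 2 (1.14, adjusted p = 0.102) or either KO2 library. FURIN, the proprotein convertase, had values of -0.38 and -0.66, and CTSL 0.01 and -0.02. HGF, the ligand of MET, reached at most 0.901 normalized counts in any library and was not tested. In eGFP cells 0 of the 11 were called by limma against WT, beside 12.7% of all genes. MST1R, uncalled there, stood at 24.4 and 19.3 normalized counts in eGFP cells against 162.4 and 107.5 in WT. SCNN1A stood at 122.6 and 224.3 in eGFP cells against 142.9 and 172.7 in WT.

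Of 21 transcription factors tied to TMPRSS2 in other tissues or added ectopically here, 15 were tested. POU2F2 and PRRX1 are in the list as added factors. The paper reported them as upregulated on SETD2 loss in these same cells and took them up as candidate effectors. Their higher calls follow from that choice, are description only, and enter the counts and medians given next. In KO1, 4 were called higher and 0 lower (26.7% called, near the 25.0% of all genes), and in KO2, 5 higher and 1 lower (6 of 15, beside 16.3% of all genes), with medians of 1.17 and 0.74 beside 0 and 0.00314 over all genes. ETV1, an ETS factor of the group that forms TMPRSS2 fusions in prostate cancer, rose by 6.01 and 6.08. Its libraries stood at 512 and 510 normalized counts in KO1 and 495 and 578 in KO2, against 7.46 and 6.42 in WT, so that the groups did not overlap. ETV4, a close relative, rose by 4.27 and 3.65. POU2F2 rose by 5.10 and 4.22, with WT libraries at 39.3 and 237. PRRX1, listed at 0 in both WT libraries, was called higher in both clones and stood at 37.5 and 8.98 normalized counts in KO1 and 34.8 and 28.4 in KO2.

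In KO2, FOXA2, a forkhead factor of endodermal epithelia, was called higher (2.12) and GATA2 lower (-1.57). ETV1 was also higher in the eGFP libraries than in WT (4.31, adjusted p = 5.694e-06), as were ETV4 (4.05), FOXA2 (2.04) and POU2F2 (1.69). PRRX1 was listed at 0 in every library of WT, eGFP cells and both rescue clones, and in the eGFP and rescue libraries TMPRSS2 stood at 333 normalized counts or more. ERG reached at most 2.38, GRHL2 3.33, SPDEF 9.82 and FOXA1 20.3 normalized counts.

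**Figure D3:**
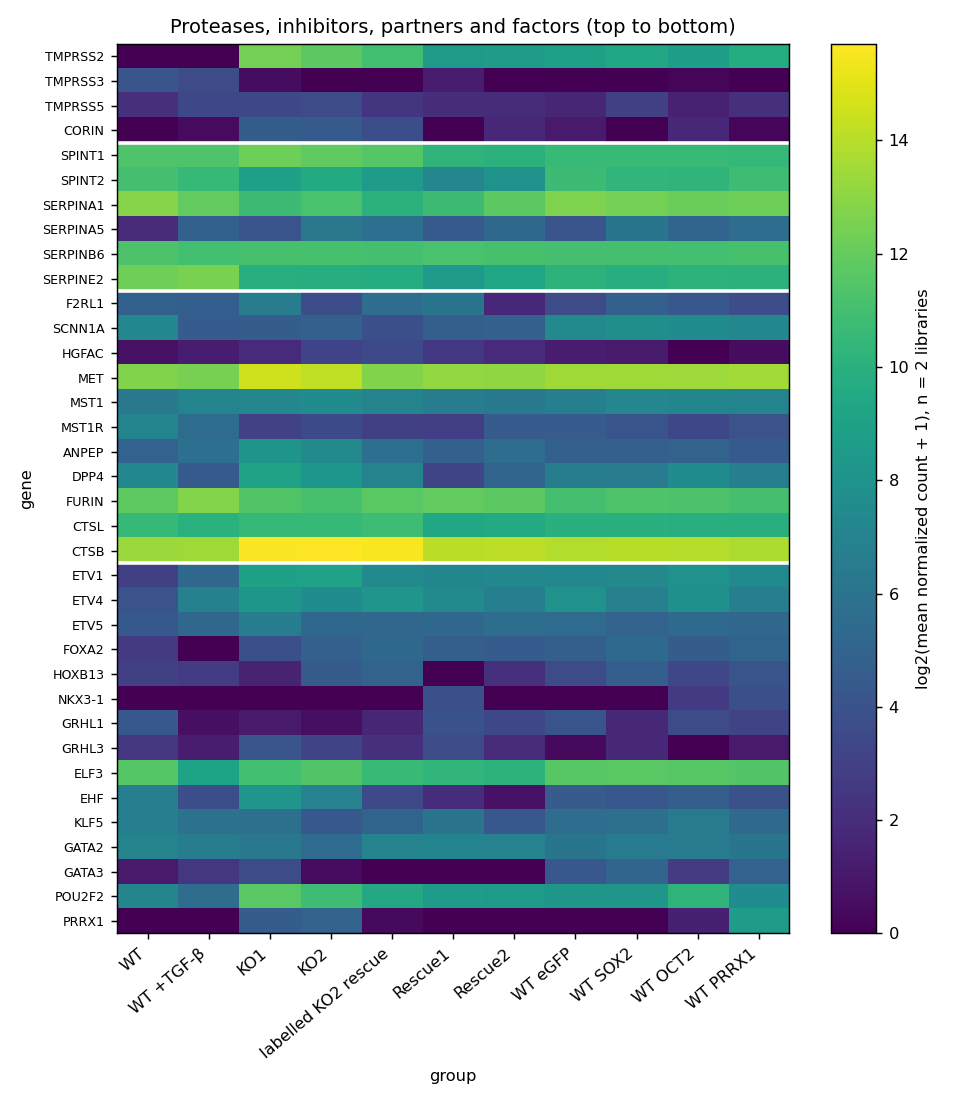
Mean level in each of the 11 groups (x axis) of TMPRSS2 and of 35 of the 36 other tested proteases, inhibitors, substrates or partners and transcription factors (y axis, in 4 blocks, with 1 inhibitor not shown), as log2(mean normalized count + 1) of 2 libraries. TMPRSS2 is the member of the top block with the highest level in KO1, at a mean of 5557, while ETV1 and POU2F2 in the bottom block are also above WT in the 10% serum groups.

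TMPRSS2 is mostly an epithelial gene, and a list of epithelial genes was read beside it. Of 20 members 14 were tested, and 11 were called lower and 0 higher in KO1, and 9 lower and 0 higher in KO2, beside 13.1% and 7.29% of all genes called lower. OVOL2, called lower in both clones, passed the filter only through its WT libraries (14.6 and 15.5 normalized counts), so its calls are description only. The median log2 change was -2.32 in KO1 and -1.77 in KO2, beside 0 and 0.00314 over all genes. EPCAM, an epithelial adhesion molecule, fell by 3.51 and 1.74 on the log2 scale. ESRP2, a splicing regulator of epithelial isoforms, fell by 4.51 and 3.42, and CDH3 (P-cadherin) had changes of -5.81 and -6.02. MUC1 changed by -7.56 and -7.26. CDH1 (E-cadherin) was called lower in both clones, from only 25.5 and 47.5 normalized counts in the WT libraries to 0 in both KO1 libraries and at most 0.776 in KO2. It lost its KO1 call without WT replicate 2 (adjusted p = 0.0927) or either KO1 library, and its KO2 call without WT replicate 1 (adjusted p = 0.0809) or WT replicate 2 (adjusted p = 0.156), or either KO2 library. In eGFP cells, 5 of the 14 were called lower than in WT and 0 higher (35.7%, beside 6.24% of all genes lower), with a median of -1.15. The rise of TMPRSS2 thus stood beside falls of most tested epithelial genes in the same clones.

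The genes around TMPRSS2 were read in the same contrasts. Within 1 Mb on either side GENCODE 44 lists 48 other genes, of which 19 were in the table and 12 were tested. In KO1, 3 were called higher and 2 lower (41.7% called, beside 25.0% of all genes, of which 12.0% higher), and in KO2, 1 higher and 1 lower (16.7%, beside 16.3%). ABCG1, a sterol exporter, rose by 4.26 and 3.55, to means of 28.3 and 16.8 normalized counts from 0 and 1.27 in WT. MX2, an interferon-induced relative of MX1, rose by 5.03 in KO1 and had 2.78 in KO2 (adjusted p = 0.0941), from 0 and 1.10 in WT, and with WT this low the values of both genes depend on the pseudocount. The lower call shared by both clones was TMPRSS3, given above. BACE2, the nearest tested gene beyond MX1 and MX2 on that side, with 1283 normalized counts in WT, had 0.26 and 0.29. On the other side, RIPK4 had 0.54 and 0.04, PRDM15 0.02 and -0.25, and ZBTB21 0.03 and -0.42. C2CD2 was called lower in KO1 (-2.17) and lost that call without KO1 replicate 2 (-0.91, adjusted p = 0.384) or either WT library.

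MX1 overlaps TMPRSS2 and was therefore read by library. It stood at 243 and 84.0 normalized counts in KO1, 80.05 and 59.4 in KO2 and 29.5 and 23.7 in WT. Its KO1 change of 2.39 (adjusted p = 0.0306) lost its call when totals were made equal (1.99, adjusted p = 0.0641) or without KO1 replicate 1 (1.63, adjusted p = 0.202) or either WT library. In eGFP cells, where TMPRSS2 stood at 554 and 418, MX1 was at 2.38 and 33.3, and its difference from WT was -1.35 (adjusted p = 0.260). The level of TMPRSS2 exceeded that of MX1 in each of the 18 libraries in which TMPRSS2 was read. Of the 12 tested neighbours, 1 was called in eGFP cells against WT (8.33%, beside 12.7% of all genes). It was TMPRSS3, called lower as given above.

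**Figure D4:**
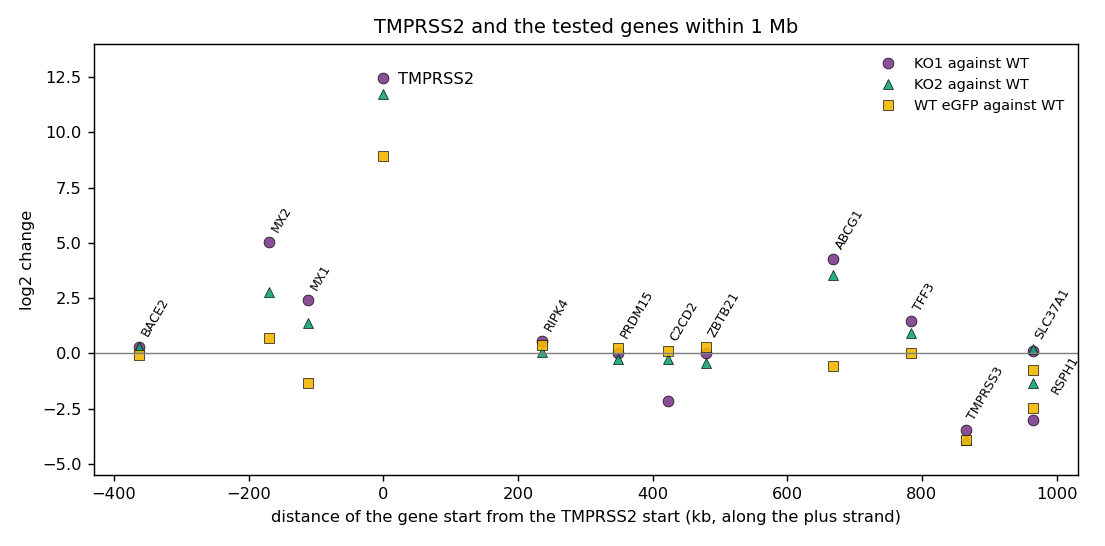
Log2 change (y axis) of TMPRSS2 and the 12 tested genes within 1 Mb, by distance of the gene start from that of TMPRSS2 in kb (x axis), for KO1, KO2 and eGFP against WT, which share the WT libraries. The TMPRSS2 points (12.44 in KO1 and 11.75 in KO2) lie above those of every neighbour, of which MX2 in KO1 (5.03) is the highest.

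Genes with the same pattern were looked for over the whole table. The rule, with thresholds set after values had been seen, was at most 3 normalized counts in each of the 4 WT and TGF-β libraries and at least 100 in each of the other 18. It was met by 3 genes, TMPRSS2, IGF2 and FLI1. With a minimum of 10 in place of 100 it was met by 8, the others being WNT2, PDPN, NUPR1, MAP1LC3C and TM4SF19. The reverse pattern, at least 10 in the 4 and at most 3 in the 18, was met by LTB and MYL3, and by 0 genes at a minimum of 100.

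The 3 genes that shared this on and off pattern differed in where they were highest. IGF2, the fetal insulin-like growth factor, stood at 4819 and 6332 normalized counts in KO1 and 2809 and 2597 in KO2. In eGFP cells IGF2 was at 4508 and 4291, near its KO1 level, whereas TMPRSS2 in eGFP cells was far under its own. FLI1, an ETS factor, was highest in Rescue1 (1184 and 1094) and lower in KO1 (267 and 157) and eGFP cells (156 and 154). Of the 3, TMPRSS2 alone had both KO clones above all other groups, which is description only because its KO values were used to choose it. That trait was not particular to TMPRSS2. WNT2 and MAP1LC3C, which met the rule at a minimum of 10, also had both KO clones on top, as did FEZ1, given below. WNT2 stood at 11260 and 10350 normalized counts in KO1, 3191 and 2595 in KO2 and at most 680.5 in any other library.

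By Pearson's r of log2(normalized count + 1) over the 22 libraries, the genes most like TMPRSS2 were CDH13 (r = 0.969), FEZ1 (0.956), CD163L1 (0.950), ENSG00000274276 (0.949), ENSG00000256594 (0.939), HEG1 (0.935), ZEB2 (0.935), SH3BP1 (0.934), NFIX (0.934) and IGF2 (0.928). CDH13 is an atypical cadherin without a transmembrane domain, FEZ1 an adaptor of kinesin transport and ZEB2 a repressor of epithelial genes. Among the 5 most unlike were LMO4 (-0.967), MYL3 (-0.938), LLGL2 (-0.938) and LTB (-0.927), of which LMO4 is a LIM-domain transcription cofactor and LLGL2 a cell polarity protein. The libraries share groups and, in part, serum, so these values describe the pattern and carry no p. Much of the likeness came from the 4 libraries listed at 0. Over the other 18 libraries, a choice made after seeing the data, r was 0.797 for CDH13, 0.875 for FEZ1, 0.661 for ZEB2 and 0.235 for IGF2.

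Of the 10 most like genes, FEZ1 had the highest r over the 18 libraries. It stood at 7791 and 6976 normalized counts in KO1, 6782 and 6414 in KO2, 2319 and 2193 in labelled KO2 rescue, 2508 and 2253 in eGFP cells and 272 and 185 in WT. LMO4 ran the opposite way, at 2122 and 1774 in WT, 439.6 and 459.8 in KO1 and 765.7 and 643.3 in eGFP cells. SETD2 itself had r = -0.117 over the 22 libraries and -0.837 over the 18. The 18 include the rescue clones, with added SETD2 at 9764 to 10440 normalized counts against at most 3128 in any other library. Labelled KO2 rescue had the least SETD2 mRNA but less TMPRSS2 than either KO clone. SETD2 mRNA in the KO clones carries frameshifts, so these r values are no measure of a dose of SETD2 function.

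**Figure D5:**
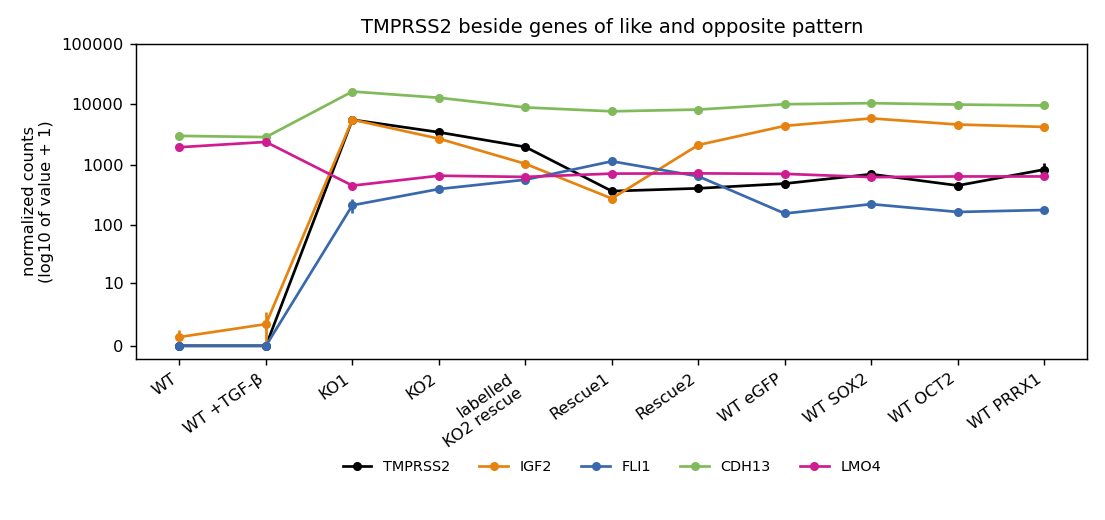
Mean normalized counts of 5 genes on the y axis (log10 of the value + 1) in the 11 groups on the x axis, with vertical bars from the lower to the higher of 2 libraries. TMPRSS2, IGF2 and FLI1 are at or near 0 in WT and TGF-β-treated WT and above 100 in all other libraries, CDH13 follows at higher levels, and LMO4 runs from 2122 and 1774 in WT to 439.6 and 459.8 in KO1.

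Markers of the tissues in which TMPRSS2 is best known were low. Of the prostate luminal markers, KLK2, KLK3 and KLK4 did not exceed 1.28 normalized counts in any library, whereas SLC45A3 reached 72.9 (PRRX1 replicate 2), TRPM8 66.2 (Rescue2 replicate 1) and HOXB13 32.2 (labelled KO2 rescue replicate 1). The summed level of the 9 prostate luminal markers was 24.5 to 111 in KO1, 57.0 to 79.3 in KO2, 73.9 to 125 in eGFP cells, 38.1 to 40.5 in WT and 132 to 151 in PRRX1 cells, the highest. The intestinal markers in the table summed to at most 13.5 and the lung markers to at most 12.7 in any library. Of 14 proximal tubule markers, PAX8, PAX2 and GGT1 were read in every group, while SLC22A6 and HNF4A were listed at 0 and LRP2 reached at most 2.29, so the label of the line was met in part. The 8 fibroblast markers summed to 223500 to 236700 in KO1 and 100100 to 103700 in KO2, carried by DCN, against 846 and 12450 in WT and 3686 and 4238 in eGFP cells. They summed to 46400 to 47810 in TGF-β-treated WT, where TMPRSS2 was listed at 0. That sum was carried by COL1A1 (46600 and 45010), with DCN at 1049 and 1083. COL1A1 stood at 11920 and 531.9 in WT, 1042 and 814.6 in KO1 and 3751 and 3520 in KO2, so the members did not move together. In the rescue clones, where TMPRSS2 stood at 333 to 450, the 8 markers summed to 830 to 1536. Their part in the TMPRSS2 result was not tested.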

How the data were processed

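RNA was read by Illumina sequencing of stranded mRNA libraries. The authors quantified reads with Salmon (1.9.0 in the submitters' processing notes) against the GRCh38 cDNA set of Ensembl 94, ran DESeq2 1.26.0, and deposited log2 values for 36859 genes. How the deposited log2 values were normalized is not given in the sources used here. All 22 libraries share 11.32 as lowest value (highest 21.28), as variance-stabilized values do, and the transformation was inverted to normalized counts. Depth was approximated from the step between low values. A count test was not run because whole reads were not recovered. limma 3.58.1 in R 4.3.3, with a variance trend, was fitted on log2(normalized count + 1) in all 22 libraries with a mean per group, for 14585 genes that reached 10 normalized counts in 2 or more libraries, and adjusted by Benjamini-Hochberg over these genes. On simulated data for KO1 against WT (14585 genes, 200 changed by a log2 of 2), 98 were called (49%), 96 of the 135 with a mean of at least 50 (71.1%), with 3 false calls. Positions and names came from GENCODE 44, which holds 33878 of the genes. Python 3.11.15 with pandas 2.3.3, numpy 2.4.6 and scipy 1.17.1 made the tables, and matplotlib 3.10.9 the figures.

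TMPRSS2 and the gene lists, written from general knowledge, were chosen with earlier results of these data known. Named genes were TMPRSS2, SETD2, called or defining members of the lists and of the genes within 1 Mb, the 10 most like and 5 most unlike genes, and up to 3 genes on either side in the KO rankings. Others (ATN1, NACC2, DCN and the genes of the on and off pattern) were chosen after their values were seen. Some members of these lists enter the counts and are not reported here by name. Groups followed the labels. Alternatives were a pseudocount of 0.5 or 5, a minimum mean of 50 or no minimum, equal totals, quantile normalization, the deposited log2 values, only the libraries compared, a replicate block and each library left out.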

Additional observations from a re-analysis of the deposited data

Results flagged for a closer look

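For 4 genes of the lists that are reported here, the 2 KO clones differed from each other by the limma test of KO1 against KO2 itself, in which 6.97% of all genes were called. None of them concerns TMPRSS2, whose KO values were used to choose it. The KO1 minus KO2 log2 difference was -3.32 for HOXB13 (adjusted p = 0.00572), a homeobox factor of prostate epithelium. HOXB13 stood at means of 1.901 normalized counts in KO1 and 21.1 in KO2, both low. Among epithelial genes it was -1.77 for EPCAM (adjusted p = 1.26e-07), -1.09 for ESRP2 (adjusted p = 0.0371) and -1.26 for KRT8 (adjusted p = 2.033e-08), each lower in KO1, the clone with more TMPRSS2. The clones were each represented by 2 libraries, and clone and library cannot be told apart from other differences between single-cell derived lines.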

How the results depend on the processing

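No alternative changed the side of the threshold of a TMPRSS2 contrast except the deposited log2 values, on which labelled KO2 rescue against the rescue clones was 0.67 and under the fold threshold (adjusted p = 1.246e-07). Of 82 recomputed TMPRSS2 contrasts, 78 kept direction and side of the threshold and 3, all uncalled and near 0, turned sign. These were Rescue1 against Rescue2 without Rescue2 replicate 2 (0.011), and OCT2 against eGFP without eGFP replicate 1 (0.09) and without OCT2 replicate 2 (0.11). Leaving out 1 library at a time gave -0.53 to -0.13 for rescue clones against eGFP, -0.31 to 0.01 for Rescue1 against Rescue2, 2.26 to 2.46 for labelled KO2 rescue against rescue clones, 0.33 to 0.73 for SOX2, -0.33 to 0.11 for OCT2 and 0.31 to 1.14 for PRRX1. With the same total for every library the ratio to eGFP was 8.84 in KO1 and 6.22 in KO2.

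List counts are given for KO1 then KO2. On the deposited log2 values, which compress the changes of low genes, they were 0 and 0 for proteases, 2 and 2 for inhibitors, 1 and 0 for transcription factors, 3 and 0 for epithelial genes and 0 and 0 for neighbours. With only the libraries compared, which leaves fewer samples, they were 1 for proteases in KO2, 2 for inhibitors in KO1, and 2 and 1 for neighbours. With the same total, transcription factors numbered 7 in KO1. Neighbours in KO1 numbered 3 with no filter, 1 at a mean of at least 50 and 3 without either WT replicate 1 or WT replicate 2, and in KO2 0 at a mean of at least 50. Leaving out 1 library gave 2 to 2 in both clones for proteases, 3 to 4 and 3 to 4 for inhibitors, 4 to 6 and 6 to 7 for transcription factors, 9 to 10 and 7 to 8 for epithelial genes and 3 to 5 and 2 to 3 for neighbours. Where no cause is given, it was not tested. For single genes 635 recomputed values kept their call and 97 lost it. The likeness of the 10 most like and 5 most unlike genes was recomputed with Spearman's rho, with equal totals and over 18 libraries, and kept its sign, whereas that of FLI1 went from 0.906 to -0.121 over the 18.

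Replicate numbers are shared between groups, but same-numbered libraries did not deviate together (correlation of deviations -0.0823 to 0.0475 over 55 pairs of groups), so they do not pair the samples. With a replicate block the TMPRSS2 contrasts were unchanged, at -0.33, -0.15, 2.36, 0.53, -0.11 and 0.73, and transcription factors called in KO1 numbered 5 in place of 4. Groups of 2 limit every call, and at low levels most changes of a log2 of 2 would be missed.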
